A study of Mus musculus with 6 samples.

Results

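The glycolysis and hypoxia-response genes examined here are 37 genes, chosen by name: 23 for glucose and lactate transport, glycolytic enzymes and their regulators, and 14 for the hypoxia-inducible factor Hif1a, its prolyl hydroxylases and other genes known to respond to low oxygen. Of the 37, 34 had a probe named for them among the 45281 probes and 19057 named genes of the Illumina MouseWG-6 v2.0 array, with 65 probes in all, and 27 had a probe bright enough to be tested, of 8716 genes tested in all. RNA was measured in 2 lines of mouse embryonic fibroblasts (MEFs) on 3 arrays each. Dnmt1-/- MEFs carry a hypomorphic allele at both copies of Dnmt1, the gene for the maintenance DNA methyltransferase, and lack Trp53, which encodes p53. Dnmt1+/+ MEFs have unaltered Dnmt1 and lack Trp53 as well. No low-oxygen or other treatment is named for either line, and the age of the embryos is not given in the sources used here. The sources do not say whether the 3 replicates of a group were separate cultures, and the p-values below reflect array-to-array spread that may be technical. Dnmt1 genotype and line cannot be told apart.

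Glycolysis splits glucose into pyruvate in the cytosol, and lactate dehydrogenase turns pyruvate into lactate. When oxygen is scarce, the prolyl hydroxylases encoded by the Egln genes no longer mark HIF-1α for destruction, and the factor binds the short core sequence ACGTG or GCGTG near its target genes. Many of these targets encode glycolytic enzymes, glucose transporters and factors for blood vessel growth, while others, among them Egln3, feed back on the factor. Some of these promoters are CpG-rich, and the core sequence itself contains a CpG, the dinucleotide on which Dnmt1 acts.

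Facts of the whole data set were as follows. The raw intensity of the Dnmt1-/- arrays averaged 217 to 397 and that of the Dnmt1+/+ arrays 326 to 357, and 14699 to 16499 probes an array were above background. Pearson's r of the log2 intensities was 0.956 to 0.986 for pairs of Dnmt1-/- arrays, 0.972 to 0.987 for pairs of Dnmt1+/+ arrays and 0.876 to 0.938 for mixed pairs. The Dnmt1 probe read 8.16, 7.06 and 7.42 (log2) on the Dnmt1-/- arrays and 9.79, 9.74 and 9.42 on the Dnmt1+/+ arrays, a 4.31-fold lower mean with no overlap (adjusted p = 0.00193). Of 14 fibroblast markers, 10 were detected on every Dnmt1-/- array and 12 on every Dnmt1+/+ array. The summed level of that list, most of it P4hb and Vim, was 26762 to 36386 in Dnmt1-/- and 24384 to 32372 in Dnmt1+/+. Fap was above background on 0 arrays and Thy1 on 0 of the Dnmt1-/- arrays. Of the 12 fibroblast markers tested, S100a4 rose (limma adjusted p = 0.0301), Thy1 fell (0.00318) and 10 were not called. Of 8 blood and macrophage markers, 5 (Ptprc, Lyz2, Tyrobp, Adgre1 and Itgam) were above background on 0 arrays, and the summed level of the list, most of it Cd14, was 301 to 390 in Dnmt1-/- and 138 to 203 in Dnmt1+/+. Cd53 and Csf1r were above background on all 3 Dnmt1-/- arrays and 0 Dnmt1+/+ arrays. Cd53 (limma adjusted p = 0.0176) and Cd14 (0.0137) were higher in Dnmt1-/- MEFs, and Csf1r was not called (0.115). The epithelial marker Krt19 was above background on 0 Dnmt1-/- arrays and all 3 Dnmt1+/+ arrays (0.00849). The part of such marker differences in the results below was not tested.

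Most glycolytic enzymes of the Dnmt1-/- MEFs were not called different from Dnmt1+/+ MEFs, while a small number of genes in both groups of members were. Pfkp, Eno2, Ndrg1 and P4ha2 rose, and Slc2a3 and Egln3 fell. A gene was called when the Benjamini-Hochberg adjusted p of limma's moderated test over all 15795 tested probes was under 0.05, and each gene was read from its brightest tested probe. Of the 27 tested members 4 rose and 2 fell, where 9.61% of all tested genes rose and 7.82% fell. The 6 called members were 22.2% of the 27, against 17.4% of all genes. With only probes detected on all 6 arrays, which leaves out Slc2a3 and Adm, 25 members were tested, of which 4 rose and 1 fell. Every Dnmt1-/- array lay above every Dnmt1+/+ array for 5 members and below for 5, against 18.7% and 21.7% of all genes, and 5 of 27 is near both. The median difference, Dnmt1-/- minus Dnmt1+/+, was 0.09 on the log2 scale over the members and -0.05 over all tested genes, and over the members it was -0.01 without Dnmt1+/+ replicate 1. Median scaling over all probes moved the members to -0.30 and all genes to -0.36, and median scaling over the tested probes moved the members to -0.01 and all genes to -0.08. The median size of the difference was 0.32 over the members and 0.33 over all genes. With 1 array left out 0 to 5 members rose and 0 to 3 fell, and the lowest counts came without Dnmt1+/+ replicate 1 (0 rose, 0 fell), Dnmt1-/- replicate 3 or Dnmt1+/+ replicate 2 (0 rose, 1 fell each).

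**Figure D1:**
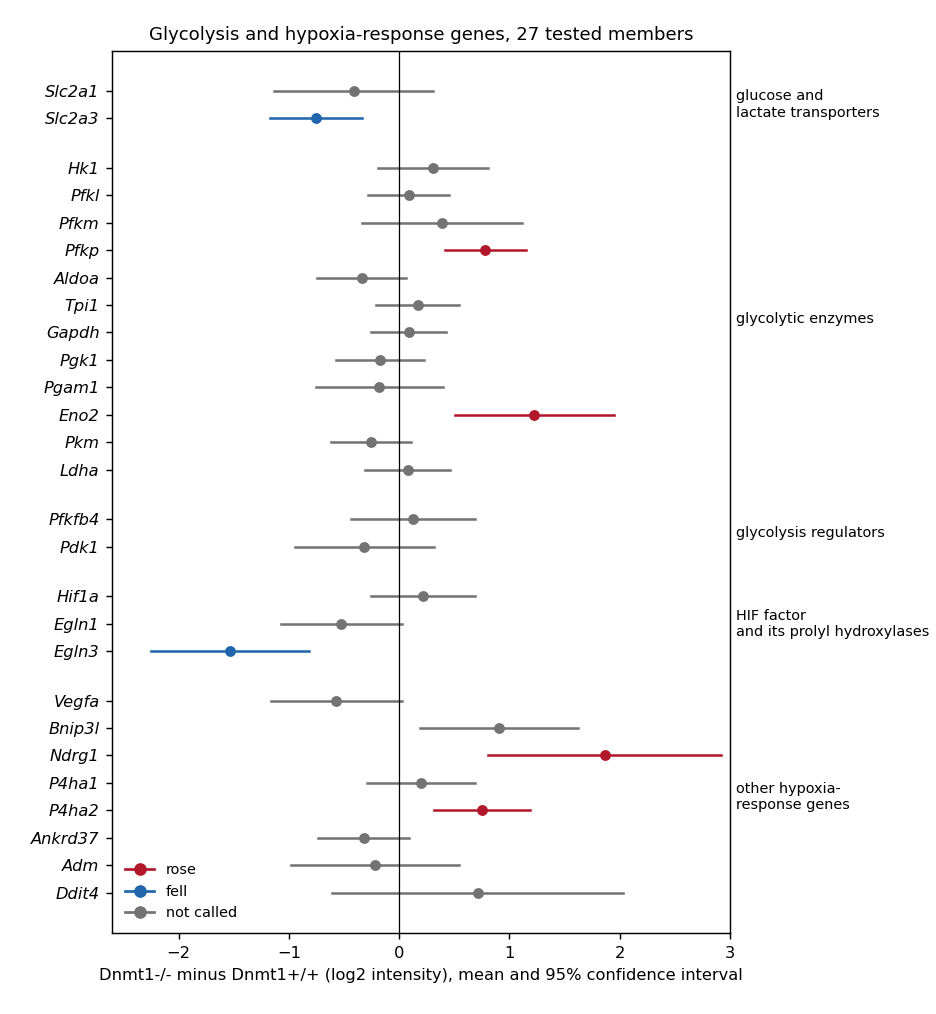
Difference between Dnmt1-/- and Dnmt1+/+ MEFs in log2 intensity for the 27 tested members (x axis), 1 row a gene grouped by role, with the 95% confidence interval from limma. Pfkp, Eno2, Ndrg1 and P4ha2 lie above 0 and Slc2a3 and Egln3 below it as called genes, and most enzymes have intervals that cross 0.

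The promoter sequences of the called members are shown because the core sequence bound by the factor contains a CpG and the groups differ in Dnmt1. They are RefSeq windows (GRCm38.p6) of 250 bases before and 50 bases after the annotated start, written 5′ to 3′ on the strand of the gene, and the capitals mark each ACGTG or GCGTG on either strand (CACGT or CACGC where the match is on the opposite strand). Of the 6 called members, 4 had a window in the table used.
Pfkp, chr13:6648722-6649021, minus strand: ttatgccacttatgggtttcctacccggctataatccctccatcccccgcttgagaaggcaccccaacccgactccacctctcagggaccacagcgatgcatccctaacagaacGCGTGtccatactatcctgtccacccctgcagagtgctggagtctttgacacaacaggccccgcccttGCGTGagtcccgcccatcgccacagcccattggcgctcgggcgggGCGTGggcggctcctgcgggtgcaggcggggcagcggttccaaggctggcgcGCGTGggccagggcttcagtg
Eno2, chr6:124769624-124769923, minus strand: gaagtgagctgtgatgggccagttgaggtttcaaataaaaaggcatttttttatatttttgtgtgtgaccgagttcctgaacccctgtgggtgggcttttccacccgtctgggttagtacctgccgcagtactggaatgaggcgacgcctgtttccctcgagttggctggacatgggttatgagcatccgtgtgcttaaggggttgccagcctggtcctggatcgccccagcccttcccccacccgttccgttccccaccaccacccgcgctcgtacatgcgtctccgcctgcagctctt
P4ha2, chr11:54100674-54100973, plus strand: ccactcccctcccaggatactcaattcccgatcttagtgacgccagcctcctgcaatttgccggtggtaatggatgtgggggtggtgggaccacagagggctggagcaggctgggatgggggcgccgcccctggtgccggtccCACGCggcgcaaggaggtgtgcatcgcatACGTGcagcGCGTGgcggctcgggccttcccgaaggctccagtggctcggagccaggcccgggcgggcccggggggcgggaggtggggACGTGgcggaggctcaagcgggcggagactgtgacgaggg
Egln3, chr12:54203825-54204124, minus strand: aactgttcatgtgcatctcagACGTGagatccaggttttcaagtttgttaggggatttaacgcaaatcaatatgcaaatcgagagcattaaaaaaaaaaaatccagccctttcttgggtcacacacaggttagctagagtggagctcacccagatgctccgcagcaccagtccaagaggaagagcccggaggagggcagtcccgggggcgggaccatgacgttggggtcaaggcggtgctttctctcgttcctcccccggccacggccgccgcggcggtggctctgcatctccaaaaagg
Pfkp and P4ha2 held 4 cores each, Egln3 held 1 and Eno2 held none in this window. The CpG counts of the windows were 21 for Pfkp, 15 for Eno2, 26 for P4ha2 and 16 for Egln3.

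Across members the core was common whether or not the gene was called. For 34 of the 37 members the table held 48 windows, and 39 of them (81.2%) contained ACGTG or GCGTG on either strand, against 43.8% of all 32851 windows of the same length. Of the windows of members tested and not called, 76.7% held a core, and of the 4 windows of called members 3 did. Ldha, the gene for the muscle-type lactate dehydrogenase subunit, had the most in a single window, 7. An ACGTG within the E-box CACGTG was counted on both strands, and 10.4% of member windows and 7.15% of all windows held that E-box. Member windows had a median of 20 CpGs and all windows a median of 7, and the part of CpG content in the share with a core was not tested. A match is a string of letters and not a bound site. The arrays do not measure methylation of these windows, and its part in the calls was not tested.

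Glucose enters fibroblasts through facilitative transporters, and of these Slc2a3 fell. Slc2a3, which encodes the high-affinity transporter GLUT3, read 4.62, 4.42 and 4.33 (log2) on the Dnmt1-/- arrays and 5.39, 5.30 and 4.94 on the Dnmt1+/+ arrays. The groups did not overlap, and the probe was above background on 0 Dnmt1-/- arrays and all 3 Dnmt1+/+ arrays. After background correction the level was therefore at least 1.18-fold lower in Dnmt1-/- MEFs, set against the lowest signal above background (adjusted p = 0.0264). Slc2a3 was the 1 tested member that passed the filter through Dnmt1+/+ arrays alone, which favours a difference, and its adjusted p was 0.0494 with no filter. The call was lost when Dnmt1-/- replicate 2 (adjusted p = 0.0552) or 3 (0.0879), or Dnmt1+/+ replicate 1 (0.0934) or 2 (0.116), was left out, and with the authors' processed values (0.0813).

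Slc2a1, which encodes GLUT1, the main basal transporter of cultured fibroblasts, read 9.48, 9.89 and 9.93 on the Dnmt1-/- arrays and 9.44, 10.42 and 10.67 on the Dnmt1+/+ arrays. Its groups overlapped through the low Dnmt1+/+ replicate 1, and the difference was -0.41 (95% interval -1.13 to 0.31, adjusted p = 0.401). Slc2a1 lies on chromosome 4, whose 539 tested genes had a median difference of -0.46. Of these 26 rose and 132 fell, where 9.61% of all tested genes rose and 7.82% fell. Other chromosomes, among them those of the called members, were not summarised. The part of the chromosome in the Slc2a1 difference was not tested. The lactate exporter Slc16a3 (MCT4) had 3 probes, all above background on 0 arrays.

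The first committed step of glycolysis is phosphofructokinase, which mammals build from liver, muscle and platelet subunits, and the platelet-type subunit Pfkp rose. Pfkp read 8.17, 8.27 and 8.37 on the Dnmt1-/- arrays and 7.42, 7.37 and 7.67 on the Dnmt1+/+ arrays. The groups were clear of each other and the replicates were close together. The mean was 1.72-fold higher in Dnmt1-/- MEFs (difference 0.78 ± 0.16, SE, adjusted p = 0.0145), and a second probe gave 6.95, 6.96 and 6.84 in Dnmt1-/- and 5.85, 6.06 and 5.98 in Dnmt1+/+, a difference of 0.95 (adjusted p = 0.0046). The call on the brighter probe was lost without Dnmt1-/- replicate 3 (adjusted p = 0.0625), Dnmt1+/+ replicate 1 (0.0563) or Dnmt1+/+ replicate 2 (0.0852).

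The other phosphofructokinase subunits did not pass the test. Pfkl, the liver type, differed by 0.09 (95% interval -0.28 to 0.45). Pfkm, the muscle type, read 10.93, 9.82 and 10.10 on the Dnmt1-/- arrays and 9.53, 9.83 and 10.32 on the Dnmt1+/+ arrays, with Dnmt1-/- replicate 1 far above the other Dnmt1-/- arrays (difference 0.39, adjusted p = 0.427). Its further probes differed by 0.49 and 0.37. Whether Pfkp differed from Pfkl or Pfkm in its change was not tested.

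Enolase turns phosphoglycerate into phosphoenolpyruvate, and its neuron-type isozyme Eno2 rose. Eno2 read 8.51, 7.61 and 7.99 on the Dnmt1-/- arrays and 6.38, 6.66 and 7.40 on the Dnmt1+/+ arrays. All Dnmt1-/- arrays were above all Dnmt1+/+ arrays, with a gap of little width between Dnmt1-/- replicate 2 and Dnmt1+/+ replicate 3. The mean was 2.34-fold higher in Dnmt1-/- MEFs (difference 1.23 ± 0.31, SE, adjusted p = 0.0334). The call was lost without Dnmt1-/- replicate 1 (adjusted p = 0.0622) or 3 (0.0957), or without Dnmt1+/+ replicate 1 or 2 (0.119 each).

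The muscle-type isozyme Eno3, which is not a member but stands in the list of other glycolysis isozymes, also rose. It read 10.35, 10.57 and 10.48 on the Dnmt1-/- arrays and 8.51, 9.06 and 8.96 on the Dnmt1+/+ arrays. The groups were far apart, with a 3.09-fold higher mean in Dnmt1-/- MEFs (difference 1.63 ± 0.19, SE, adjusted p = 0.000973), and Eno3 was past the threshold under all 17 other settings tried. The ubiquitous enolase Eno1 had no probe named for it and was not analysed here. A probe named for Eno1b, a retrotransposed copy of Eno1 whose transcripts may not be separable from those of Eno1, read 6.20, 6.29 and 6.27 in Dnmt1-/- and 7.10, 6.87 and 6.89 in Dnmt1+/+ (difference -0.70, adjusted p = 0.018).

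The remaining enzymes of the pathway were not called on any of their tested probes. Hexokinase 1 (Hk1), which traps glucose in the cell, differed by 0.31, aldolase A (Aldoa) by -0.34, triose phosphate isomerase (Tpi1) by 0.17 and Gapdh by 0.09. Phosphoglycerate kinase (Pgk1) differed by -0.17, phosphoglycerate mutase (Pgam1) by -0.18, pyruvate kinase (Pkm) by -0.25 and Ldha by 0.08. Their adjusted p ranged from 0.225 for Aldoa to 0.783 for Ldha, and a p above the threshold does not show that the levels were equal.

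The intervals of these enzymes give what the arrays could show. For Gapdh the 95% interval of the difference was -0.26 to 0.43, for Ldha -0.31 to 0.46 and for Tpi1 -0.21 to 0.54, on the log2 scale. Pkm, the enzyme of the last step, read 12.79, 13.14 and 12.98 on the Dnmt1-/- arrays and 13.22, 13.24 and 13.20 on the Dnmt1+/+ arrays, and its groups were separate without a call (adjusted p = 0.305). A dimmer Pkm probe differed by -0.69 (unadjusted p = 0.0158, adjusted p = 0.076 by limma). Of the other Tpi1 probes, 1 differed by 0.42 with its groups apart (adjusted p = 0.145) and the other by -0.12. Pgam1 was low on a single array, Dnmt1-/- replicate 1, at 9.30, with the other arrays of both groups between 9.89 and 10.21.

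Among the enzymes with a probe, Aldoc was above background on 1 Dnmt1+/+ array and Ldhb on 0 arrays, and neither was tested. Hk2 and Gpi1 had no probe named for them and were not analysed here. Of 12 tested enzymes, 2 rose and 0 fell by limma, and on their brightest probes 0 were lower at an unadjusted p under 0.05. These 2 are 16.7% of the enzymes, near the 17.4% called of all genes. Their median difference was 0.09 (all genes -0.05), -0.30 under median scaling over all probes (all genes -0.36) and -0.01 under median scaling over the tested probes (all genes -0.08). The median size of the difference was 0.22, beside 0.33 over all tested genes.

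The 3 regulators act at the branch points of the pathway. Pfkfb4, a bifunctional enzyme that sets the level of fructose 2,6-bisphosphate, read 8.34, 8.26 and 8.29 on the Dnmt1-/- arrays and 7.61, 8.49 and 8.42 on the Dnmt1+/+ arrays (difference 0.12, adjusted p = 0.764). The spread was all in Dnmt1+/+, where replicate 1 was low. Pdk1, the kinase that shuts pyruvate out of the mitochondrial pyruvate dehydrogenase, read 7.03, 6.41 and 6.10 in Dnmt1-/- and 6.44, 6.96 and 7.09 in Dnmt1+/+ (difference -0.32, adjusted p = 0.462). Pfkfb3 was above background on 0 arrays.

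Hif1a itself was not called, and of its prolyl hydroxylases Egln3 fell. Hif1a read 7.45, 6.84 and 7.28 on the Dnmt1-/- arrays and 7.01, 6.76 and 7.15 on the Dnmt1+/+ arrays, with overlap and a difference of 0.22 (95% interval -0.26 to 0.69, adjusted p = 0.504). The factor is controlled largely through protein stability, which an RNA array does not measure.

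Egln3 (PHD3) read 4.89, 6.05 and 5.91 on the Dnmt1-/- arrays and 7.48, 7.03 and 6.95 on the Dnmt1+/+ arrays. Every Dnmt1-/- array was below every Dnmt1+/+ array, and Dnmt1-/- replicate 1 was lowest by more than 1 log2 unit. That reading was close to 4.77, the lowest signal above background on the same array. The mean was 2.89-fold lower in Dnmt1-/- MEFs (difference -1.53 ± 0.31, SE, adjusted p = 0.0143). The difference was smaller with no background correction (-0.72) and with the authors' processed values (-0.74). Of the called members Egln3 lost its call in the fewest other settings, 2 of 17, namely without Dnmt1+/+ replicate 1 (adjusted p = 0.0615) and with no filter on dim probes (0.074). Its other 2 probes were above background on 0 arrays.

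Egln1 (PHD2), the main oxygen sensor of the family, had 3 tested probes, none of them called. The brightest read 5.42, 6.05 and 6.09 on the Dnmt1-/- arrays and 6.71, 6.13 and 6.28 on the Dnmt1+/+ arrays, separate by a narrow gap (difference -0.52, adjusted p = 0.173). The others differed by -0.64 and -0.29.

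Of the other hypoxia-response genes Ndrg1 rose the most. Ndrg1, a stress-induced gene of the N-myc downstream-regulated family, read 9.46, 8.43 and 8.81 on the Dnmt1-/- arrays and 6.36, 6.63 and 8.13 on the Dnmt1+/+ arrays. The groups did not overlap, but Dnmt1+/+ replicate 3 stood well above the other Dnmt1+/+ arrays and close to Dnmt1-/- replicate 2. The mean was 3.63-fold higher in Dnmt1-/- MEFs (difference 1.86 ± 0.46, SE, adjusted p = 0.0294).

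A second Ndrg1 probe had the same array pattern, with 9.56, 7.93 and 8.37 in Dnmt1-/- and 6.22, 6.13 and 7.64 in Dnmt1+/+ (difference 1.96, adjusted p = 0.0338). On the brighter Ndrg1 probe the call was lost without Dnmt1-/- replicate 1 (adjusted p = 0.062) or 3 (0.0873), or without Dnmt1+/+ replicate 1 (0.106) or 2 (0.108). The difference stayed between 1.21 and 2.44 in all 17 other settings.

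P4ha2, a catalytic subunit of the prolyl hydroxylase that matures collagen, read 10.10, 9.93 and 10.07 on the Dnmt1-/- arrays and 9.01, 9.26 and 9.59 on the Dnmt1+/+ arrays. The groups were separate, with tight Dnmt1-/- values and a wide Dnmt1+/+ range (1.68-fold higher, difference 0.75 ± 0.19, SE, adjusted p = 0.0308). P4ha2 was the only member whose tested probes differed in call, the other probe giving 0.57 (adjusted p = 0.0925), and the call on the brighter probe was lost without Dnmt1-/- replicate 2 (adjusted p = 0.0513) or 3 (0.1), or without Dnmt1+/+ replicate 1 (0.104) or 2 (0.118). The paralogue P4ha1 differed by 0.20 (adjusted p = 0.553).

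**Figure D2:**
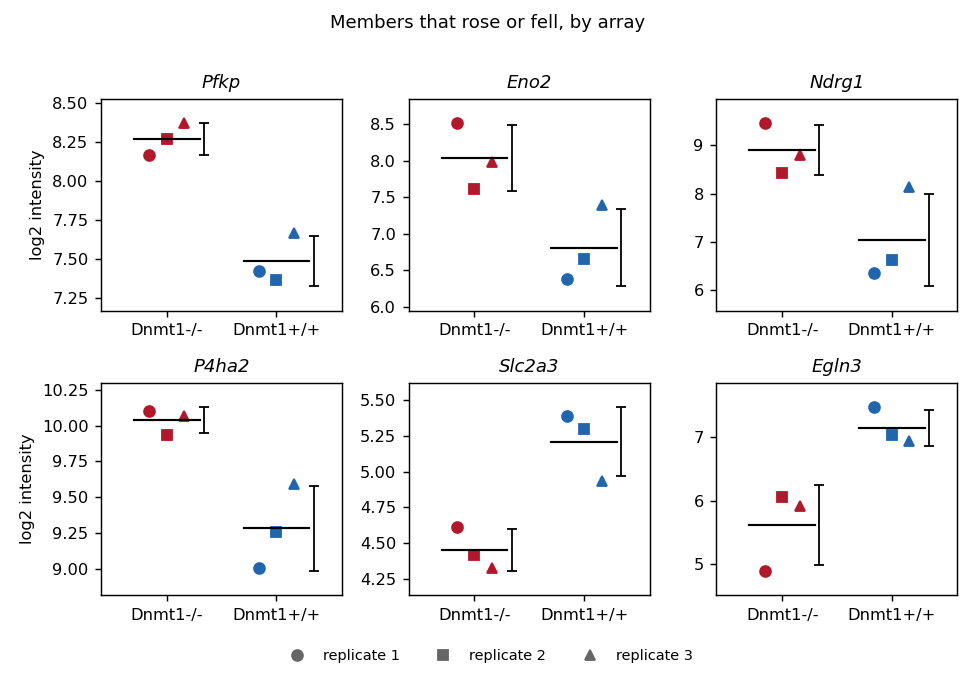
Log2 intensity (y axis, a scale of its own in each panel) of the 6 called members on each array, Dnmt1-/- left and Dnmt1+/+ right, with the mean as a line and the SD (n = 3) as a bar. The groups do not overlap in any panel, and replicate 3 of Dnmt1+/+ is the Dnmt1+/+ array nearest to the Dnmt1-/- arrays in all 6 panels.

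Bnip3l (NIX), a receptor that brings mitochondria to autophagy, had its groups apart without a call. It read 11.34, 10.69 and 10.47 on the Dnmt1-/- arrays and 9.43, 9.90 and 10.46 on the Dnmt1+/+ arrays, and the lowest Dnmt1-/- array was level with Dnmt1+/+ replicate 3. The difference was 0.91 (95% interval 0.19 to 1.62, adjusted p = 0.0841), and without Dnmt1+/+ replicate 3 it was 1.17 with an adjusted p of 0.0425.

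Vegfa, the vessel growth factor, went the other way without a call. It read 8.60, 8.11 and 7.57 in Dnmt1-/- and 8.73, 8.48 and 8.77 in Dnmt1+/+ (difference -0.57, adjusted p = 0.174). Without Dnmt1-/- replicate 1, the highest Dnmt1-/- array on this brightest probe, the difference was -0.84 (adjusted p = 0.0342). A second tested Vegfa probe differed by -0.45 with its groups apart (adjusted p = 0.127). On that probe Dnmt1-/- replicate 1 was instead the lowest Dnmt1-/- array.

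Ankrd37 and Adm were dim. Ankrd37, an ankyrin repeat gene induced by low oxygen, differed by -0.32 (adjusted p = 0.254). Adm, the vasodilator peptide adrenomedullin, was above background on 2 arrays of each group (difference -0.22, adjusted p = 0.691). The mitophagy receptor Bnip3, the cell-surface carbonic anhydrase Car9 and the mitochondrial protein gene Higd1a were above background on 0 arrays and were not tested.

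Some hypoxia-response genes differed more between arrays of 1 group than the groups differed from each other. Ddit4 (REDD1), an inhibitor of mTORC1 that answers low oxygen and other stresses, read 9.11, 7.45 and 7.72 on the Dnmt1-/- arrays and 6.57, 6.99 and 8.58 on the Dnmt1+/+ arrays. Dnmt1-/- replicate 1 and Dnmt1+/+ replicate 3 were the high arrays, and the groups overlapped (difference 0.71, 95% interval -0.61 to 2.03, adjusted p = 0.427).

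Dnmt1-/- replicate 1 exceeded the mean of the other Dnmt1-/- arrays by 1.53 for Ddit4, at percentile 98.9 of the same shift over all 8716 tested genes. Dnmt1+/+ replicate 3 exceeded the mean of the other Dnmt1+/+ arrays by 1.80 for Ddit4, at percentile 99.7. Both arrays were thus near the top of their own background for this gene.

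The same 2 arrays were the highest of their groups for Ndrg1, Eno2, Bnip3l and Pfkm. On the brightest tested probe of each gene they were also the highest for Pfkl, Tpi1, Pdk1, Hif1a, Vegfa, P4ha1 and P4ha2. The further tested probes of Pfkl, Tpi1, Vegfa and P4ha1 had another order. The second Vegfa probe was lowest in its groups on both of these arrays, at 6.71 and 7.39. Over all tested probes, deviations from the group mean on these 2 arrays correlated at 0.43 (Pearson's r), so their likeness was not particular to these genes. For Ndrg1 the shifts were 0.84 on Dnmt1-/- replicate 1 (percentile 93.5) and 1.64 on Dnmt1+/+ replicate 3 (percentile 99.6), and for Eno2 0.72 (percentile 91.1) and 0.88 (percentile 97). For Bnip3l they were 0.76 (percentile 91.9) and 0.80 (percentile 96.3), and for Pfkm 0.97 (percentile 95.7) and 0.64 (percentile 93.9).

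Egln3 moved against these genes on Dnmt1-/- replicate 1, with a shift of -1.09 at percentile 2.2, where its reading was close to the lowest signal above background. Adm shared only the high Dnmt1+/+ replicate 3 (1.03, percentile 97.9) and was highest in Dnmt1-/- on replicate 3. These genes and arrays were picked after their values were seen, so the percentiles are a description. Dnmt1-/- replicate 1 was also the brightest of the 6 arrays, with a mean raw signal of 397, while Dnmt1+/+ replicate 3 was the dimmest of its group at 326, and the part of array brightness or culture state in the pattern was not tested.

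**Figure D3:**
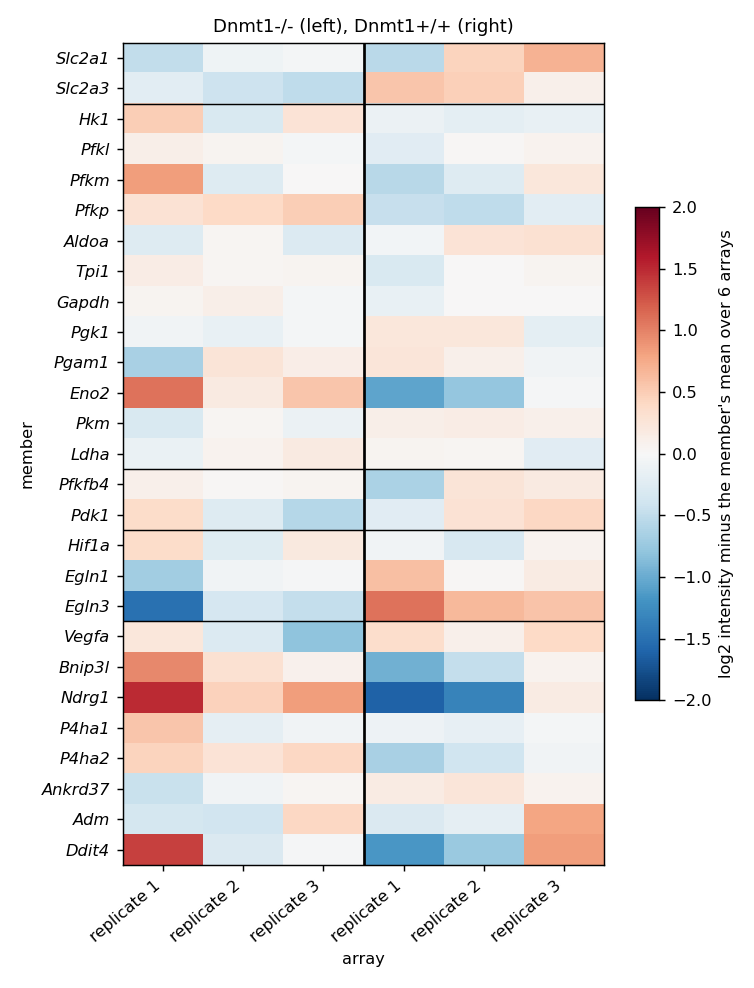
Log2 intensity of each of the 27 tested members (rows, in role order) on the 6 arrays (columns, Dnmt1-/- left of the line) minus the mean of that member over the 6 arrays, in colour. Ndrg1, Eno2, Bnip3l and Ddit4 are highest on Dnmt1-/- replicate 1 and, within Dnmt1+/+, on replicate 3, and most enzymes stay near 0.

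Across the 6 arrays the members most like Ndrg1 were Eno2 (Pearson's r = 0.991), P4ha2 (0.971) and Bnip3l (0.948), and the most opposed were Egln3 (-0.911) and Slc2a3 (-0.884). The 6 points share the difference between the groups, so the values describe likeness over both lines together. Ddit4 had r = 0.834 with Ndrg1, Pfkp 0.88 and Ldha -0.221.

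Set side by side, the glycolysis genes and the other hypoxia-response genes had like counts and unlike spread. Of the 16 tested transporters, enzymes and regulators 2 rose and 1 fell (18.8%), and of the 11 tested genes of the Hif1a group and other hypoxia-response genes 2 rose and 1 fell (27.3%), where 17.4% of all tested genes were called. The median size of the difference was 0.28 in the glycolysis group and 0.57 in the hypoxia group, and the highest difference was 1.23 in the glycolysis group and 1.86 in the hypoxia group. The median size was 0.33 over all tested genes. Outside the members it was 0.40 over 31 further hypoxia targets and 0.14 over 13 genes of the HIF machinery, both read below. The median signed difference was 0.08 in the glycolysis group and 0.20 in the hypoxia group, beside -0.05 over all genes. With median scaling over all probes these were -0.32, -0.10 and -0.36, and with median scaling over the tested probes -0.04, 0.18 and -0.08, in the same order. The glycolysis median was -0.06 without Dnmt1+/+ replicate 1, and the hypoxia median -0.03 without Dnmt1-/- replicate 1. The difference between the 2 groups of genes was not tested, since their members were chosen with results of these data known.

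Beyond the members, 126 other genes of the same pathways were read from 7 lists. Of these 117 had a probe and 70 were tested, and 6 rose and 7 fell (18.6%, against 17.4% of all genes), with a median difference of -0.0034. Of 13 tested genes of the HIF machinery, among them the partner subunit Arnt and the ubiquitin ligase subunit Vhl, 0 were called by limma, and 0 had an unadjusted p under 0.05. Of 5 tested genes of glycogen storage and gluconeogenesis 0 were called by limma, and 1 had an unadjusted p under 0.05.

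Around pyruvate and sugar supply the called genes moved in both directions. Pdha1, the catalytic subunit of pyruvate dehydrogenase, read 10.40, 10.31 and 10.36 on the Dnmt1-/- arrays and 11.26, 11.19 and 11.25 on the Dnmt1+/+ arrays, 1.83-fold lower with very small spread (adjusted p = 0.00562), and was the only called gene of 9 tested in its list. Slc2a10 (GLUT10) was above background on 0 Dnmt1-/- arrays and all 3 Dnmt1+/+ arrays, at least 2.05-fold lower after background correction (adjusted p = 0.00105). Its difference was -0.56 with no background correction and -0.67 with the authors' processed values. It too passed the filter through Dnmt1+/+ arrays alone, and its adjusted p was 0.0078 with no filter. In the pentose phosphate pathway, which feeds on glucose 6-phosphate, transaldolase (Taldo1) rose by 0.86 (adjusted p = 0.028) and ribose 5-phosphate isomerase (Rpia) fell by 0.63 (adjusted p = 0.0326). With 1 array left out the difference stayed between 0.685 and 1.01 for Taldo1 and between -0.71 and -0.53 for Rpia, but the calls were often lost. Taldo1 was not called without Dnmt1-/- replicate 2 or 3 or Dnmt1+/+ replicate 1 or 2 (adjusted p 0.0661 to 0.104), nor Rpia without any single array except Dnmt1-/- replicate 1 (0.054 to 0.16).

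Among 31 tested further hypoxia targets 4 rose and 4 fell (25.8%, against 17.4% of all genes). Angptl4, a secreted inhibitor of lipoprotein lipase, read 8.57, 9.47 and 9.16 on the Dnmt1-/- arrays and 4.26, 5.21 and 4.61 on the Dnmt1+/+ arrays. It was above background on 1 Dnmt1+/+ array, and after background correction it was at least 16.4-fold higher in Dnmt1-/- MEFs (adjusted p = 6.29e-05). Edn1, the vasoconstrictor endothelin 1, read 4.95, 6.10 and 5.39 in Dnmt1-/- and 9.27, 8.79 and 9.20 in Dnmt1+/+, 12.2-fold lower after background correction (adjusted p = 0.000145). Both genes had their groups far apart, and both differences were smaller without background correction. Angptl4 differed by 4.37 in the reported fit, 2.46 with no background correction and 2.43 with the authors' processed values. For Edn1 these were -3.61, -2.22 and -2.15.

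Flt1, a VEGF receptor, was 3.99-fold lower in Dnmt1-/- MEFs (adjusted p = 0.00133) and Sap30, a subunit of the Sin3 corepressor, 2.16-fold lower (adjusted p = 0.00243). Stc2, the glycoprotein hormone stanniocalcin 2, was 2.20-fold higher (adjusted p = 0.0152) and Hmox1, the haem-degrading oxygenase, 1.93-fold higher (adjusted p = 0.0274). Angptl4, Edn1, Flt1, Sap30, Pdha1 and Slc2a10 were past the threshold in every other setting that could be fitted for them, whereas Stc2 lost its call without Dnmt1-/- replicate 3 or Dnmt1+/+ replicate 1 or 2 (adjusted p 0.0557 to 0.073) and Hmox1 without any single array except Dnmt1-/- replicate 1 (0.0611 to 0.112). The hypoxia targets named here were chosen as the largest called changes in each direction, so they stand at both ends of the scale by choice. Of all 31 tested, 14 were higher and 17 lower in Dnmt1-/- MEFs. Of the 27 tested members 15 were higher and 12 lower, from Egln3 at one end to Ndrg1 at the other.

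**Figure D4:**
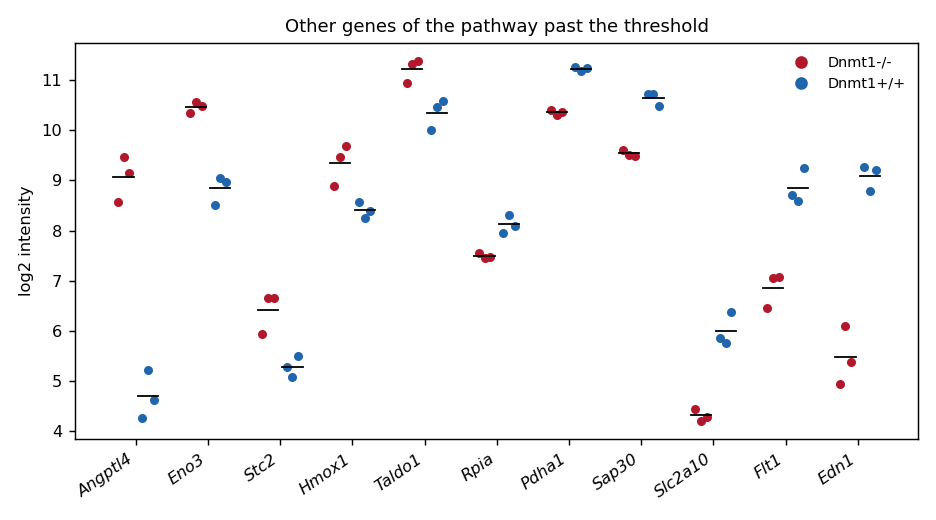
Log2 intensity (y axis) of the 11 named pathway genes outside the members on each array, Dnmt1-/- left of Dnmt1+/+ for each gene, ordered by the difference, with group means as lines. Angptl4 stands at 8.57 to 9.47 in Dnmt1-/- and 4.26 to 5.21 in Dnmt1+/+, and Edn1 at 4.95 to 6.10 in Dnmt1-/- and 8.79 to 9.27 in Dnmt1+/+.

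The 6 called members differed in how far their calls depended on the processing. With median scaling over all probes, which moved the median of all genes to -0.36, Egln3 was the only one of the 6 called (adjusted p = 0.00232), and with no filter on dim probes Pfkp and Slc2a3 were. With median scaling over the tested probes P4ha2 (adjusted p = 0.0588) and Slc2a3 (0.251) were not called, and with no background correction Eno2 (0.0509) and Slc2a3 (0.116) were not. All 6 kept their direction in every setting that could be fitted.

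**Figure D5:**
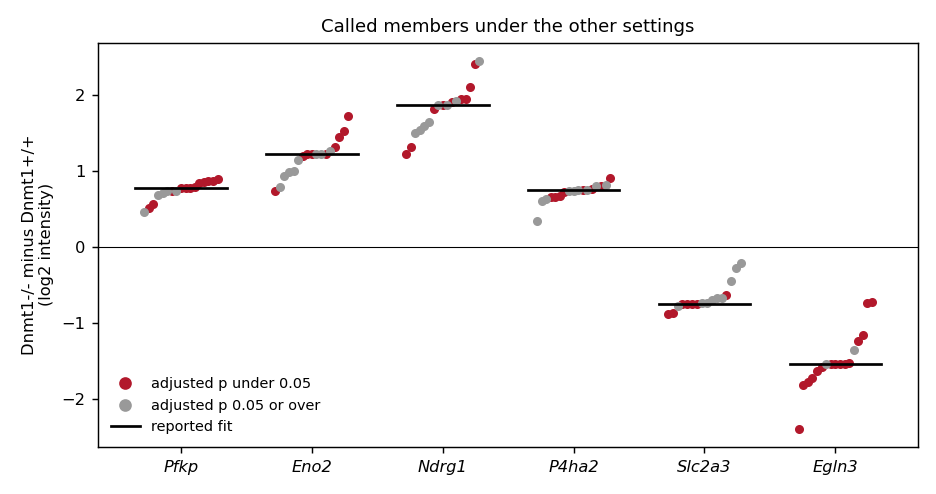
Difference between Dnmt1-/- and Dnmt1+/+ in log2 intensity (y axis) of the 6 called members under the other settings tried (points, red where the adjusted p was under 0.05) and in the reported fit (line). No point lies on the other side of 0 from its line, and Egln3 has the fewest grey points, 2.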

How the data were processed

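RNA of 3 Dnmt1-/- and 3 Dnmt1+/+ MEF samples was hybridised to single-colour Illumina bead arrays. The authors deposited raw probe intensity on a linear scale beside detection p-values, 1 of each per probe on an array. They also deposited a table of processed intensity values made with lumi, per the labels. That table is on a linear scale, and the sources used here do not say at which step the named variance-stabilizing transformation was undone.

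Raw intensities were background-corrected, quantile-normalized and put on the log2 scale with neqc (limma 3.58.1, R 4.3.3, offset 16), since scanner-level values were available. Quantile normalization gives every array the same distribution, so values are relative and hide a shift shared by all genes. The 15795 probes detected (p under 0.01) on 3 or more of the 6 arrays were tested with lmFit and eBayes, group as the only term, two-sided. The number of arrays and the spread between them limit the precision. Where a group had 0 arrays above background, the fold is a bound, taken from the lowest signal above background on each array. Such a bound holds for the background-corrected values only.

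Gene names came from the platform annotation, updated by Entrez ID: 34885 probes had 1 symbol, 18 several and 10378 none, and 78 symbols had no match and were kept. All members are named, from each pathway list up to 3 genes that rose and 3 that fell by size, and Dnmt1. Members and lists were chosen with earlier results of these data known. Alternatives were other normalizations, background corrections and filters, the authors' values, array weights, the replicate number as a block, left-out arrays and the mean of a gene's probes. A run of the test on simulated data is not reported here, and no result above rests on it. Columns of the study's own comparisons were not used.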

Additional observations from a re-analysis of the deposited data

How the results depend on the processing

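Of all genes 838 rose and 682 fell. These counts were 287 and 396 with median scaling over all probes, which shifted the median of all genes to -0.36 because that median lies near background, so that changes are read against it there. They were 777 and 551 with median scaling over the tested probes, an alternative chosen after seeing the data, 476 and 399 for probes detected on all 6 arrays, 555 and 520 with no filter on dim probes, 1349 and 1416 with array weights (a gene-by-gene update, since the REML estimate did not converge), 609 and 399 with the replicate block, and 458 to 852 and 282 to 675 with 1 array left out. Among the glycolysis genes 2 rose and 1 fell. The number that rose was 0 with median scaling over all probes, 1 with no background correction, no filter, the replicate block or Dnmt1-/- replicates 2 and 3 left out, and 0 to 2 with 1 array left out. The number that fell was 0 with either median scaling, no background correction, the authors' values, detection on all 6 arrays or Dnmt1-/- replicates 2 and 3 left out, 2 with array weights, and 0 to 1 with 1 array left out. Among the hypoxia-response genes 2 rose and 1 fell. The number that rose was 0 with median scaling over all probes, no filter, the replicate block or Dnmt1-/- replicates 2 and 3 left out, 1 with median scaling over tested probes, and 0 to 3 with 1 array left out. The number that fell was 0 with no filter, 2 with array weights, and 0 to 2 with 1 array left out. Of the other pathway genes 6 rose, 2 with median scaling over all probes or no filter and 2 to 6 with 1 array left out. Leaving out Dnmt1-/- replicates 2 and 3 leaves 1 Dnmt1-/- array, so the spread there is that of Dnmt1+/+ alone and the lone array is assumed to vary like it. The lowest counts with 1 array left out came without Dnmt1-/- replicate 3 or Dnmt1+/+ replicate 1 or 2. No called gene named in the text changed direction in a setting fitted for it, and the cause of each lost call was not tested. The labels do not say whether replicate numbers pair the samples. Deviations of same-numbered arrays correlated at -0.23, 0.33 and -0.14. Dnmt1-/- replicate 2 correlated best with its own number and Dnmt1-/- replicate 1 with another. The 3 deviations of a group cancel out, so these correlations are tied to each other and cannot settle the pairing. With the replicate block Eno2 (adjusted p = 0.067), Ndrg1 (0.0537) and P4ha2 (0.0658) were not called. Deviations of Dnmt1-/- replicate 1 correlated at 0.43 with those of Dnmt1+/+ replicate 3. Genes above background on few arrays have only a bound, and 7 members with a probe could not be tested.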
